A study of Homo sapiens with 4 samples.

Results

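Replication-dependent and linker histone genes were followed after knockdown of NIPBL in NUGC3 cells, a line derived from a human gastric cancer. They were taken by name from the deposited table, as the protein-coding genes with an Ensembl identifier whose symbol starts with HIST and a cluster number from 1 to 4. That gave 71 genes of 20269 protein-coding genes and of 53777 genes with an Ensembl identifier. The 71 comprised 6 linker histone genes (H1), 17 H2A, 18 H2B, 15 H3 and 15 H4 genes. By cluster, 55 were named HIST1, 12 HIST2, 3 HIST3 and 1 HIST4.

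Core histones H2A, H2B, H3 and H4 form the protein spool of the nucleosome, and linker histone H1 binds the DNA between nucleosomes. Most of these genes are transcribed in S phase, when replicated DNA needs new histones. Their mRNAs end in a conserved stem-loop in place of a poly(A) tail, and the stem-loop binding protein SLBP takes part in their processing, translation and decay. Some members also give polyadenylated mRNAs, mainly in cells that have left the cycle. NIPBL loads cohesin, the ring complex that extrudes chromatin loops, onto DNA.

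RNA was sequenced in 4 libraries, which were 2 NIPBL knockdown libraries and 2 scramble libraries. NIPBL was targeted by hairpin 1 in 1 knockdown library and by hairpin 7 in the other, and the control libraries are labelled scramble, called scramble 1 and scramble 2 here. The letters DOX and the word combined stand in all 4 labels without explanation. Scramble 2 has the label of scramble 1 plus the suffix R1 and may be a repeat of it. No label names separate cultures, so a p-value here covers just the differences among these libraries, technical ones included. Values are FPKM, in which reads are divided by transcript length and by library size, and the read depth behind them is unknown. FPKM was also summed over all deposited rows, those without an Ensembl identifier included. The sum was 749446 with hairpin 1 and 682076 with hairpin 7, against 739335 in scramble 1 and 730732 in scramble 2.

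NIPBL itself had 7.27 FPKM with hairpin 1 and 9.17 FPKM with hairpin 7, against 23.92 and 23.11 FPKM in the scramble libraries. It fell in the test over both hairpins, by a log2 change of −1.42 with an SE of 0.14 (limma, adjusted p = 0.0218). All 5 epithelial markers (EPCAM, KRT8, KRT18, KRT19 and CDH1) averaged from 61.7 to 1880 FPKM. Of markers of other cells, 1 of 5 for fibroblasts, 0 of 4 for blood cells and 0 of 2 for endothelium averaged at least 1 FPKM. In bulk RNA, fewer cells in S phase and less histone mRNA per cell cannot be told apart.

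The stem-loop was looked for in the GENCODE 29 models (GRCh38), since it sets histone mRNAs apart from other transcripts. It was searched as a stem of 6 base pairs, G-U pairs allowed, that opens with GG and closes with CC. The stem encloses a loop of 4 bases whose first 3 are T. Of 83129 coding transcripts, searched over their whole length, 303 held such a stem-loop (0.364%). Members were searched after the stop codon alone and counted as genes, so these counts are not alike. Of the 70 matched members, 30 held one there, while the models of 35 end at the stop codon and could not be searched. The windows below come from members with high values, an H4 gene with a near-identical copy and a low H3 gene, and the stem-loop is in capitals.
HIST2H2AA4: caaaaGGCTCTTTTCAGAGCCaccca
HIST3H2A: ataaaGGCTCTTTTCAGAGCCaccta
HIST1H2BH: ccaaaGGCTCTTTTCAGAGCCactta
HIST1H2BD: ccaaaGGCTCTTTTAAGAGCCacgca
HIST1H4J: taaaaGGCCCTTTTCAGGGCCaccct
HIST2H4A: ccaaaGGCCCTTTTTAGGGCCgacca
HIST1H3G: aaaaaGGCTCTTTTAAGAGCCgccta
Within this selection the H4 stem-loops read GGCCCT at their start, while those of H2A, H2B and H3 read GGCTCT. GENCODE 29 annotates 22 members for more than 100 bases past the stem-loop. The identifier that the deposited table calls HIST2H2AA4 is named HIST2H2AA3 in GENCODE 29, so the names of that near-identical pair are uncertain.

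Promoters of these genes show what the family shares and where the types part. A RefSeq promoter of the GRCh38.p14 build was found for 66 of the 71 members, 32 by identifier and 34 by an older symbol. The 250 bases before each start were searched on both strands for TATAAA, the TATA box, for CCAAT, which NF-Y binds, and for ATTTGCAT, the octamer that POU2F1 binds. No member's window had an overlap of different motifs. TATAAA was in 66.7% of member windows and in 11.1% of all 27305 promoter windows. CCAAT was in 84.8% and 33%, and it was in every H1, H2A, H2B and H3 window but in 23.1% of H4 windows. The octamer was in 39.4% of member windows and 1.66% of all windows. By type it was in 68.8% of H2A, 77.8% of H2B, 7.69% of H3 and none of the H1 or H4 windows. The H3 share is the window of HIST1H3D alone, which is the same window as that of the H2A gene HIST1H2AD. Windows of head-to-head H2A and H2B genes overlap, so these shares count some sequence for both partners. One window each of an H1, an H4 and a pair of H2B genes whose levels are described below is shown with the motifs in capitals.
HIST1H1C, chr6:26056471-26056720 on the minus strand: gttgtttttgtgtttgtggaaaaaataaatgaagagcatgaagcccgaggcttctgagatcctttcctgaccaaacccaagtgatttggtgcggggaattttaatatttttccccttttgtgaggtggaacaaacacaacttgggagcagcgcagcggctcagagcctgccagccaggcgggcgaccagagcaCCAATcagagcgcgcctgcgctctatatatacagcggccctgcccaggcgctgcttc
HIST1H2BK, chr6:27146859-27147108 on the minus strand: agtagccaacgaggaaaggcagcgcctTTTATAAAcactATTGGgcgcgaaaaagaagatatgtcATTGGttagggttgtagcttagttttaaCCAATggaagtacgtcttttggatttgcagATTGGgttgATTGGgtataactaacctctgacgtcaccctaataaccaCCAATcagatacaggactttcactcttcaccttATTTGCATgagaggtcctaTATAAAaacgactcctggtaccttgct
HIST1H2BH, chr6:26251364-26251613 on the plus strand: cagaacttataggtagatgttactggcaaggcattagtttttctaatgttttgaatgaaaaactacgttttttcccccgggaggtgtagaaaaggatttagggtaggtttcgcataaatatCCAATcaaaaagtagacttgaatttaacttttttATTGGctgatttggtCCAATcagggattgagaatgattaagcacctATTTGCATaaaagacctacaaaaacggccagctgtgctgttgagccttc
HIST1H4J, chr6:27823842-27824091 on the plus strand: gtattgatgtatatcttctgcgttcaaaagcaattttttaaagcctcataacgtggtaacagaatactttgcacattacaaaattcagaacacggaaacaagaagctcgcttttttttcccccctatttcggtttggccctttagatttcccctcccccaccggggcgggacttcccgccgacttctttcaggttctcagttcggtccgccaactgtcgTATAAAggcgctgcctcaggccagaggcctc
The H1 window has CCAAT alone, the H4 window has TATAAA alone, HIST1H2BK has all 3 motifs and HIST1H2BH has CCAAT and the octamer.

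Of the 71 members, 34 averaged at least 1 FPKM over the 4 libraries and entered the test, and 7 averaged at least 10 FPKM. Tested members were 2 of 6 for H1, 9 of 17 for H2A, 11 of 18 for H2B, 5 of 15 for H3 and 7 of 15 for H4. The other 37 averaged under 1 FPKM, and 6 of them were listed at 0 in all 4 libraries (HIST1H1A, HIST1H2AA, HIST1H2BA, HIST1H2BE, HIST1H4F and HIST2H3PS2). HIST1H1E at a mean of 1.10 FPKM and HIST1H4H at 1.16 FPKM were just inside this limit, while HIST1H2BI at 0.91 FPKM and HIST1H2BN at 0.89 FPKM were just outside. Of the tested members, 3 reached the limit with a knockdown mean under 1 FPKM (HIST1H3G, HIST1H3F and HIST1H3C) and 2 with a scramble mean under 1 FPKM (HIST1H2BL and HIST1H1E).

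Summed over all 71 members, FPKM was 519 with hairpin 1 and 243.6 with hairpin 7, against 263.7 and 264.7 in the scramble libraries. The hairpin 1 library stood 1.96 times above the scramble mean, and the hairpin 7 library was at 0.922 of it. The scramble sums lay within a few FPKM of each other, while the knockdown sums lay on both sides of them. Of the FPKM summed over all deposited rows, members made up 0.0693% with hairpin 1 and 0.0357% with hairpin 7. The shares were 0.0357% in scramble 1 and 0.0362% in scramble 2. A few genes carried most of this, with the 6 highest members holding 69.8% of the members' sum with hairpin 1 and 66.6% with hairpin 7, against 59.2% and 60.1% in scramble 1 and scramble 2. Leaving out the near-identical HIST2H2AA3 and HIST2H2AA4 gave sums of 363.3 with hairpin 1 and 190.3 with hairpin 7, against 216.8 and 221 FPKM in the scramble libraries.

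**Figure D1:**
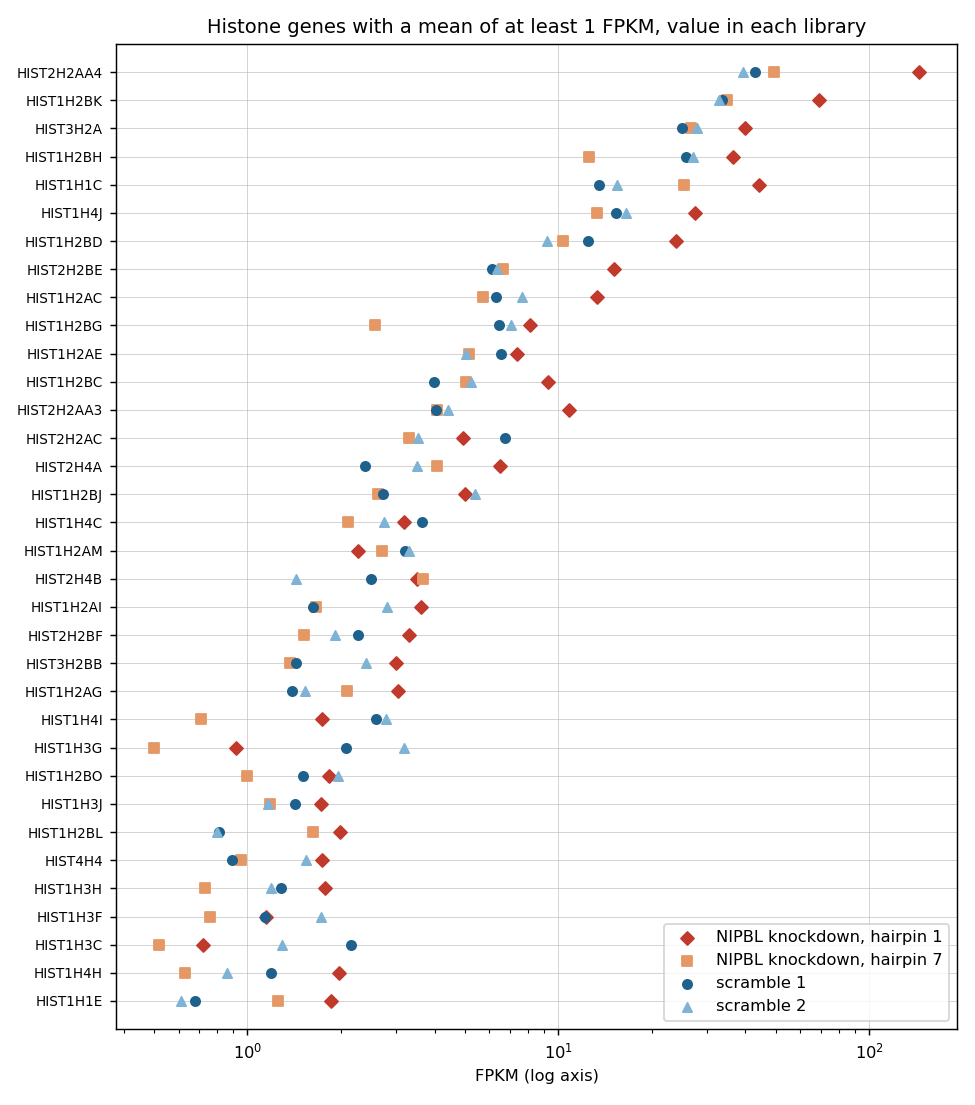
FPKM (log axis) of each of the 34 histone genes averaging 1 FPKM or more, with 1 symbol per library and genes ordered by their mean. The hairpin 1 library lies right of the hairpin 7 library for 32 of the 34 genes.

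Over both hairpins together, no member passed the test. With limma on log2(FPKM + 1) over 12834 genes, 0 of 34 members had an adjusted p under 0.05, against 2.56% of all genes tested. The smallest adjusted p was 0.0916, for HIST1H1C. At an unadjusted p under 0.05 there were 4 members higher and 3 lower with knockdown, beside 3390 of the 12834 genes in either direction. Of these members, HIST1H2BL, HIST1H1E, HIST1H3G and HIST1H3C reached the 1 FPKM limit through the group where they were high. The filter thus favoured their direction. A p that misses the threshold does not show equal levels, and the hairpins lay apart in most members. The median log2 change of the 34 members was 0.11, made of 0.52 with hairpin 1 and −0.22 with hairpin 7, while the medians over all genes were −0.01, 0.01 and −0.03.

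Taken by hairpin, most of the 34 tested members were above both scramble libraries with hairpin 1, and fewer were with hairpin 7. With hairpin 1, 13 of 34 members were at least 1.5-fold above both scramble libraries on the log2(FPKM + 1) scale, against 6.03% of all genes, and 1 was as far below, against 4.68%. With hairpin 7, 1 member was at least 1.5-fold above both, against 8.28% of all genes, and 5 were as far below, against 6.65%. At any size, the hairpin 1 value lay above both scramble libraries for 25 of 34 members, against 44.4% of all genes, and below both for 4, against 42.6%. The hairpin 7 value lay above both for 9, against 41.9%, and below both for 17, against 47%, which is near the share over all genes. In 13 of 34 members both knockdown values lay on 1 side of both scramble values, 9 higher and 4 lower, against 60.3% of all genes. The filter favoured the direction of HIST1H2BL and HIST1H1E among the 9, and of HIST1H3G and HIST1H3C among the 4. These genes also enter the 1.5-fold counts. In 8 members hairpin 1 lay above and hairpin 7 below both scramble values, against 10.7% of all genes, and none of the 34 did the opposite, against 8.31%. Each hairpin has 1 library, so these shares describe those libraries.

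Fitted alone against the scramble libraries, with the lone library assumed to vary as the scramble pair does, hairpin 1 gave 11 members higher at an adjusted p under 0.05 in limma, against 11.1% of all genes, and 0 lower, against 11.6%. Hairpin 7 fitted alone gave 4 members lower, against 19.6% of all genes, and 1 higher, against 15.7%. The member higher with hairpin 7 was HIST1H1C, and those lower were HIST1H2BG, HIST1H2BH, HIST1H4I and HIST1H3G. For HIST1H3G the filter favoured that direction.

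**Figure D2:**
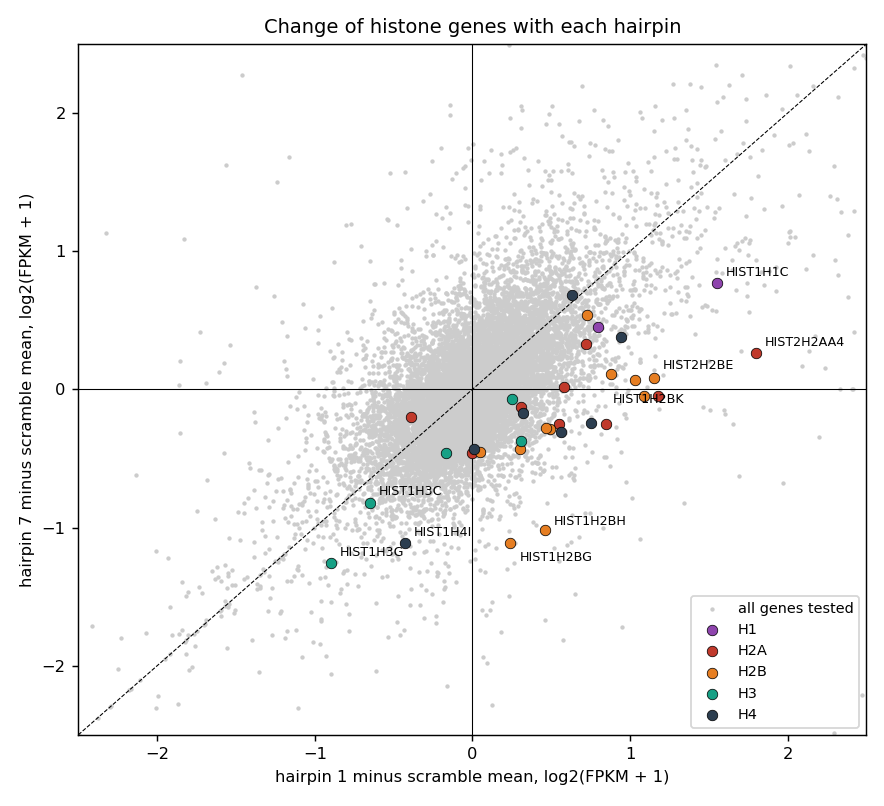
Difference from the scramble mean in log2(FPKM + 1) for hairpin 1 (horizontal axis) and hairpin 7 (vertical axis), with the 34 histone genes coloured by type and all 12834 genes tested in grey. Grey points beyond 2.5 on either axis (68 genes) are not drawn, the dashed line marks equal differences, and 32 of the 34 histone genes lie under it.

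Linker histone genes were the type whose sum was higher with both hairpins. Their summed FPKM was 46.4 with hairpin 1 and 26.93 with hairpin 7, against 14.92 and 16.62 in the scramble libraries. Nearly all of it came from HIST1H1C, which encodes H1.2, 1 of the somatic H1 subtypes. HIST1H1C (chr6:26055787-26056428 on the minus strand in GENCODE 29, a coding model without introns) had 44.21 FPKM with hairpin 1 and 25.32 FPKM with hairpin 7, against 13.48 and 15.47 FPKM in the scramble libraries. Both knockdown values lay above both scramble values, and the hairpin 1 value was the highest. Its log2 change was 1.16 ± 0.27 (SE, limma, adjusted p = 0.0916), so it missed the threshold over both hairpins. On the log2(FPKM + 1) scale it was the 1 tested member at least 1.5-fold above both scramble libraries with each hairpin. In plain FPKM the low genes HIST1H1E and HIST1H2BL also lay that far above. HIST1H1E, the gene of H1.4, was named after its values were seen, and had 1.86 and 1.25 FPKM with hairpins 1 and 7, against 0.68 and 0.61 FPKM in scramble. It reached the 1 FPKM limit through its knockdown values, so its higher values are no separate support for a higher H1 level. Its log2 change was 0.63 ± 0.23 (adjusted p = 0.175, limma). HIST1H1B had 0.24 to 0.40 FPKM over the 4 libraries and HIST1H1D was listed at 0 with both hairpins, against 0.28 and 0.18 FPKM. HIST1H1A was listed at 0, and the testis gene HIST1H1T reached at most 0.10 FPKM.

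H2A genes took the largest summed FPKM with hairpin 1, at 232.7, while hairpin 7 gave 101.7, against 102 and 99.84 in the scramble libraries. HIST2H2AA4, an H2A gene of the chromosome 1 cluster, was the highest member of all. It had 144.91 FPKM with hairpin 1 and 49.25 FPKM with hairpin 7, against 42.88 and 39.20 FPKM in the scramble libraries. Both knockdown values were above both scramble values, but the hairpin 1 value stood far from the other 3. The log2 change was 1.03 ± 0.50 (SE, limma, adjusted p = 0.267), with 1.80 for hairpin 1 and 0.26 for hairpin 7. Its near-identical copy HIST2H2AA3 was listed with 10.84 and 4.06 FPKM, against 4.05 and 4.43 FPKM. RSEM divides reads between such copies, and their sum was 155.8 FPKM with hairpin 1 and 53.31 FPKM with hairpin 7, against 46.93 and 43.63 FPKM in scramble.

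HIST3H2A, the H2A gene of the small HIST3 cluster, had 39.93 and 26.72 FPKM with hairpins 1 and 7, against 25.01 and 27.85 FPKM in scramble. Its hairpin 1 value was the highest and its hairpin 7 value lay between the scramble values. HIST1H2AC had 13.30 and 5.71 FPKM, against 6.31 and 7.66 FPKM, with hairpin 1 above and hairpin 7 below both scramble libraries. HIST1H2AE at 7.39 and 5.17 FPKM, against 6.53 and 5.06 FPKM, and HIST2H2AC at 4.94 and 3.30 FPKM, against 6.74 and 3.54 FPKM, had overlapping or interleaved values. Among tested H2A genes, HIST1H2AM was the 1 whose knockdown values both lay below both scramble values, with 2.26 and 2.70 FPKM, against 3.22 and 3.31 FPKM (log2 change −0.30 ± 0.16, adjusted p = 0.30, limma). HIST1H2AI had 3.62 and 1.66 FPKM, against 1.62 and 2.81 FPKM in scramble, so the groups overlapped. Over the 9 tested H2A genes the median log2 change was 0.58 with hairpin 1 and −0.13 with hairpin 7.

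H2B genes summed to 180.6 FPKM with hairpin 1 and 80.87 FPKM with hairpin 7, against 100.8 and 105.5 FPKM in the scramble libraries. HIST1H2BK (chr6:27146418-27146798 on the minus strand in GENCODE 29, a coding model) led them with 69.15 and 34.95 FPKM with hairpins 1 and 7, against 33.75 and 32.88 FPKM. Both knockdown values were the higher ones, with the hairpin 7 value close to scramble (log2 change 0.55 ± 0.32, adjusted p = 0.335, limma). HIST1H2BD had 23.86 and 10.34 FPKM, against 12.45 and 9.21 FPKM, and its hairpin 7 value lay between the scramble values. In HIST2H2BE, 15.08 and 6.63 FPKM stood against 6.10 and 6.35 FPKM, so the hairpin 1 value was the outlying one. HIST1H2BC followed with 9.24 and 5.03 FPKM, against 3.97 and 5.25 FPKM in scramble.

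Among the 11 tested H2B genes, HIST1H2BH and HIST1H2BG were the 2 at least 1.5-fold below both scramble libraries with hairpin 7, on the log2(FPKM + 1) scale. At any size, the hairpin 7 value lay below both in 17 of the 34 tested members. HIST1H2BH had 36.54 FPKM with hairpin 1 and 12.53 FPKM with hairpin 7, against 25.67 and 27.12 FPKM in scramble. The hairpin 1 value was 1.38 times and the hairpin 7 value 0.475 of the scramble mean. HIST1H2BG had 8.13 and 2.58 FPKM, against 6.45 and 7.04 FPKM, which gave 1.21 times with hairpin 1 and 0.383 with hairpin 7. In both genes the scramble libraries lay close together between the hairpins. HIST1H2BJ had 5 and 2.62 FPKM, against 2.72 and 5.41 FPKM, and overlapped. HIST1H2BL was higher with both hairpins, at 1.99 and 1.63 FPKM, against 0.81 and 0.80 FPKM (log2 change 0.64 ± 0.20, adjusted p = 0.14, limma). As it reached the 1 FPKM limit through its knockdown values, that direction was favoured by the filter.

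**Figure D3:**
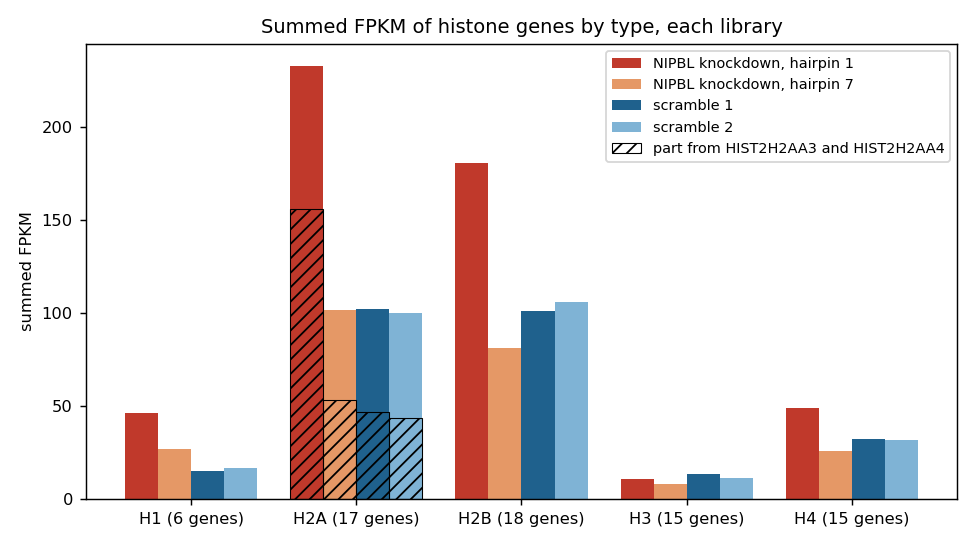
Summed FPKM of all members of each histone type in each library, with 1 bar per library (hairpin 1, hairpin 7, scramble 1, scramble 2) and the part from HIST2H2AA3 and HIST2H2AA4 hatched. H1 is above both scramble libraries with both hairpins, H3 is below both with both hairpins, and H2A, H2B and H4 are above both with hairpin 1 alone, with hairpin 7 below both for H2B and H4.

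H3 genes were the type whose sum was lower with both hairpins, at 10.55 FPKM with hairpin 1 and 8.27 FPKM with hairpin 7, against 13.57 and 11.31 FPKM in scramble. All were low, and 5 of 15 could be tested. Of those 5, HIST1H3G, HIST1H3F and HIST1H3C reached the 1 FPKM limit through their scramble values, so no median over the 5 is given. Not every H3 gene was lower, as HIST1H3A, which was not tested, had 1.13 and 0.50 FPKM, against 0.37 and 0.49 FPKM. HIST1H3C had 0.72 and 0.52 FPKM, against 2.16 and 1.29 FPKM, and HIST1H3G, named after its values were seen, had 0.92 and 0.50 FPKM, against 2.07 and 3.19 FPKM. In both genes each knockdown value lay below each scramble value, although the scramble values were spread. The log2 change of HIST1H3G was −1.08 ± 0.26 (SE, limma, adjusted p = 0.0924). On the log2(FPKM + 1) scale, it alone of the 34 tested members lay at least 1.5-fold below both scramble libraries with each hairpin. In plain FPKM, HIST1H3C also lay that far below. HIST1H3F, HIST1H3H and HIST1H3J overlapped or lay on both sides of scramble. The copies HIST2H3A and HIST2H3C were listed with the same values in every library, 0.60 and 0.26 FPKM, against 0.67 and 0.44 FPKM.

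H4 genes, nearly all of which encode the same protein, summed to 48.84 FPKM with hairpin 1 and 25.8 FPKM with hairpin 7, against 32.37 and 31.44 FPKM in scramble. HIST1H4J was the highest of them, with 27.59 and 13.36 FPKM, against 15.34 and 16.57 FPKM, so hairpin 1 lay above and hairpin 7 below both scramble libraries. HIST1H4C had 3.20 and 2.10 FPKM, against 3.65 and 2.75 FPKM, and HIST4H4, the lone member on chromosome 12, had 1.74 and 0.95 FPKM, against 0.89 and 1.54 FPKM. HIST1H4I, named after its values were seen, was lower with both hairpins, at 1.74 and 0.71 FPKM, against 2.60 and 2.80 FPKM (log2 change −0.77 ± 0.28, adjusted p = 0.17, limma). The copies HIST2H4A and HIST2H4B were higher with both. HIST2H4A had 6.47 and 4.07 FPKM, against 2.38 and 3.51 FPKM, and HIST2H4B had 3.52 and 3.67 FPKM, against 2.5 and 1.43 FPKM. The sum of their FPKM, which still depends on the transcript length used for each copy, was 9.99 FPKM with hairpin 1 and 7.74 FPKM with hairpin 7, against 4.88 and 4.94 FPKM in scramble. As single genes their adjusted p values were 0.197 and 0.162 in limma, and the sum was not tested.

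By cluster, the 7 tested HIST2 genes had a median log2 change of 0.94 with hairpin 1 and 0.08 with hairpin 7, and the 24 tested HIST1 genes had 0.38 and −0.25. Summed HIST2 FPKM was 190.9 with hairpin 1 and 74.02 with hairpin 7, against 70.77 and 61.25 in scramble, most of it from the HIST2H2AA pair. Summed HIST1 FPKM was 283.4 and 139.8, against 165.2 and 171.2. The difference between clusters was not tested.

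Many H2A and H2B genes start head to head from a shared promoter region. Among members with a RefSeq start, 12 pairs had starts on opposite strands within 500 bases of each other, at 194 to 248 bases, and 11 of them joined an H2A with an H2B gene. The other pair joined HIST1H3D with HIST1H2BF, because the HIST1H3D start used here is that of HIST1H2AD. In 7 pairs both genes were tested. HIST1H2AC and HIST1H2BC had log2 changes of 0.85 and 0.88 with hairpin 1, and −0.25 and 0.11 with hairpin 7. HIST1H2AE and HIST1H2BG lay close with hairpin 1, at 0.31 and 0.24, and apart with hairpin 7, at −0.13 and −1.11. HIST2H2AC and HIST2H2BE differed with hairpin 1, at 0.00 and 1.15. HIST3H2A and HIST3H2BB had 0.58 and 0.47 with hairpin 1 and 0.02 and −0.28 with hairpin 7. Partners therefore had near values in some pairs and not in others.

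**Figure D4:**
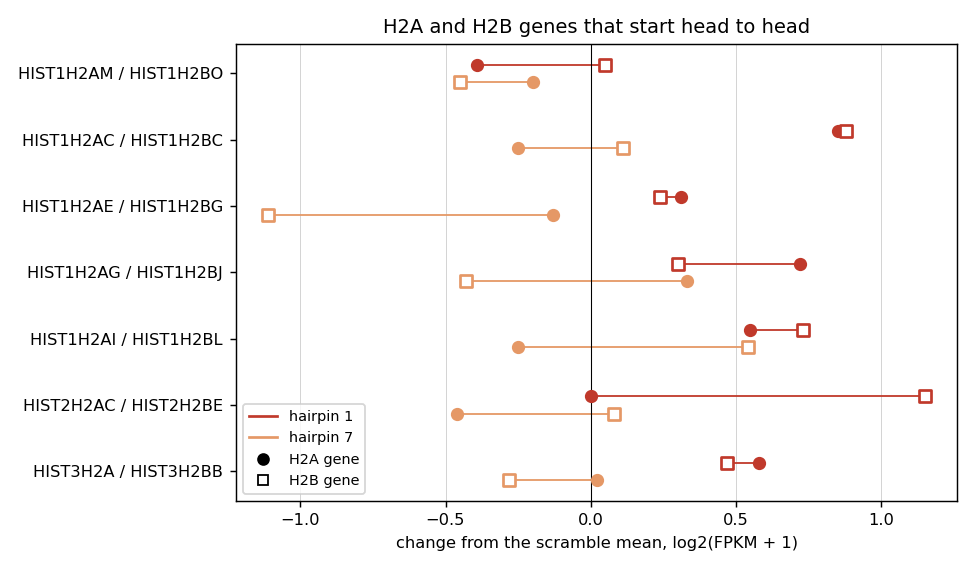
Difference from the scramble mean in log2(FPKM + 1) for the 7 head-to-head pairs with both genes tested, with filled circles for the H2A gene, open squares for the H2B gene, dark red for hairpin 1 and orange for hairpin 7. HIST1H2AC and HIST1H2BC nearly coincide with hairpin 1, while HIST1H2AE and HIST1H2BG are far apart with hairpin 7.

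A list of 6 members known to give polyadenylated transcripts (HIST1H1C, HIST1H2BD, HIST1H2BK, HIST1H2AC, HIST2H2BE and HIST1H2BC) was set beside the rest. The list was chosen with earlier results of these data known, so its counts are not independent of the values. With hairpin 1 all 6 were at least 1.5-fold above both scramble libraries, against 6.03% of all genes, and their median log2 change was 1.06. With hairpin 7 that held for 1 of 6 (HIST1H1C), against 8.28% of all genes, with a median of 0.07. None of the 6 passed the adjusted test over both hairpins, against 2.56% of all genes. The other 28 tested members had medians of 0.39 and −0.26. Of these, 7 were that far above with hairpin 1, against 6.03% of all genes, and 5 that far below with hairpin 7, against 6.65%. Grouped by gene model instead, 16 tested members are annotated for more than 100 bases past the stem-loop. Their medians were 0.52 with hairpin 1 and −0.26 with hairpin 7, and some of them are also on the list. Summed FPKM of the 6 was 174.8 with hairpin 1 and 87.98 with hairpin 7, against 76.06 and 76.82 in scramble. The other 65 members summed to 344.2 and 155.6 FPKM, against 187.6 and 187.8 FPKM, and without the HIST2H2AA pair to 188.4 and 102.3 FPKM, against 140.7 and 144.2 FPKM. The difference between the lists was not tested, and whether RNA was selected by its poly(A) tail is not given in the sources used here.

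RNAs of other classes that lack a poly(A) tail also differed between the libraries. RN7SL1, an RNA of the signal recognition particle, had 505.41 FPKM with hairpin 1 and 514.35 FPKM with hairpin 7, against 1281.26 and 2090.5 FPKM in scramble, and fell in the test (adjusted p = 0.0492, limma). RN7SL2 had 1063.92 and 907.08 FPKM, against 3202.54 and 4181.14 FPKM, and also fell (adjusted p = 0.0225, limma). RN7SK, which restrains the elongation factor P-TEFb, had 1.46 and 17.65 FPKM, against 12.29 and 4.77 FPKM, and was not ordered by group. RMRP and RPPH1 did not pass the test either, with adjusted p values of 0.829 and 0.875 in limma. The part of this difference in the histone values was not tested.

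Histone variants listed as replication-independent were set beside the members, without a test of the difference. Of 17 listed, 10 were tested and none passed, against 2.56% of all genes. The median log2 change was −0.06 with hairpin 1 and −0.09 with hairpin 7. H2AFX, the variant phosphorylated at DNA breaks, had 121.7 FPKM with hairpin 1 and 94.53 FPKM with hairpin 7, against 69.0 and 68.7 FPKM in scramble (log2 change 0.63 ± 0.14, adjusted p = 0.0884, limma). H2AFX is known to give both stem-loop and polyadenylated mRNA. Of the 10 tested, 4 had a positive and 6 a negative log2 change. H2AFJ was also higher with both hairpins, at 45.96 and 43.15 FPKM, against 35.13 and 31.16 FPKM (adjusted p = 0.102, limma). H1FX had 61.64 and 52.27 FPKM, against 66.45 and 67.48 FPKM. H2AFZ had 454.51 and 440.05 FPKM, against 565.46 and 563.61 FPKM (adjusted p = 0.126, limma). The linker variant H1F0, a gene of resting and differentiated cells, had 140.4 and 165.3 FPKM, against 182.83 and 178.68 FPKM. H3F3A and H3F3B, which both encode H3.3, had log2 changes of 0.05 ± 0.11 and −0.07 ± 0.11. CENPA, the centromeric H3 variant, had 31.58 and 23.42 FPKM, against 36.23 and 39.08 FPKM.

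Genes that make, process or degrade histone mRNA had mostly negative log2 changes. All 28 were tested and none passed, against 2.56% of all genes, while 23 had a negative log2 change, against 51.7%. The median was −0.22, with −0.15 for hairpin 1 and −0.24 for hairpin 7. SLBP had 52.46 FPKM with hairpin 1 and 53.42 FPKM with hairpin 7, against 66.86 and 65.52 FPKM in scramble, with both knockdown values below both scramble values (adjusted p = 0.113, limma). NPAT, the coactivator of histone gene clusters, had 9.90 and 12.39 FPKM, against 12.99 and 13.17 FPKM. CPSF2, a subunit of the cleavage complex that trims histone pre-mRNA, had 19.22 and 19.14 FPKM, against 27.99 and 26.79 FPKM (adjusted p = 0.0682, limma). ZNF473, also of that machinery, had 5.14 and 5.86 FPKM, against 8.07 and 8.05 FPKM. The log2 change was positive in 5 of the 28. NFYC, 1 of these, was higher with both hairpins, at 27.38 and 28.67 FPKM, against 20.7 and 23.56 FPKM (adjusted p = 0.151, limma). SLBP was thus lower with both hairpins, whereas the members' sum was higher with 1 hairpin and lower with the other.

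Histone chaperones and S phase genes had negative medians with both hairpins. Of 22 chaperone genes, none passed, against 2.56% of all genes, and 19 were negative, against 51.7%. Their median log2 change was −0.23 with hairpin 1 and −0.21 with hairpin 7. HJURP, of smallest p in this list, had 39.22 FPKM with hairpin 1 and 41.16 FPKM with hairpin 7, against 55.58 and 59.02 FPKM in scramble (adjusted p = 0.0671, limma). SSRP1, a subunit of the FACT complex, was named outside the naming rule. It had 125.36 FPKM with hairpin 1 and 53.11 FPKM with hairpin 7, against 157.2 and 159.49 FPKM in scramble (adjusted p = 0.217, limma). The subunits CHAF1A and CHAF1B of the assembly factor CAF-1 had adjusted p values of 0.271 and 0.185 in limma. Of 25 S phase genes, 2 fell in the test, against 1.11% of all genes, and none rose, against 1.45%. Of the 25, 24 were negative, against 51.7% of all genes, and the medians were −0.47 with hairpin 1 and −0.23 with hairpin 7. MCM6, of the replicative helicase, had 29.94 and 31.13 FPKM, against 49.01 and 50.10 FPKM (adjusted p = 0.0409, limma), and MCM3 had 55.55 and 56.67 FPKM, against 85.40 and 83.87 FPKM (adjusted p = 0.0493, limma). PCNA, the sliding clamp, had 233.6 and 259.35 FPKM, against 327.17 and 321.32 FPKM. Hairpin 1 thus had the lower S phase median and the higher histone median of the hairpins. All these comparisons share the same scramble libraries.

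**Figure D5:**
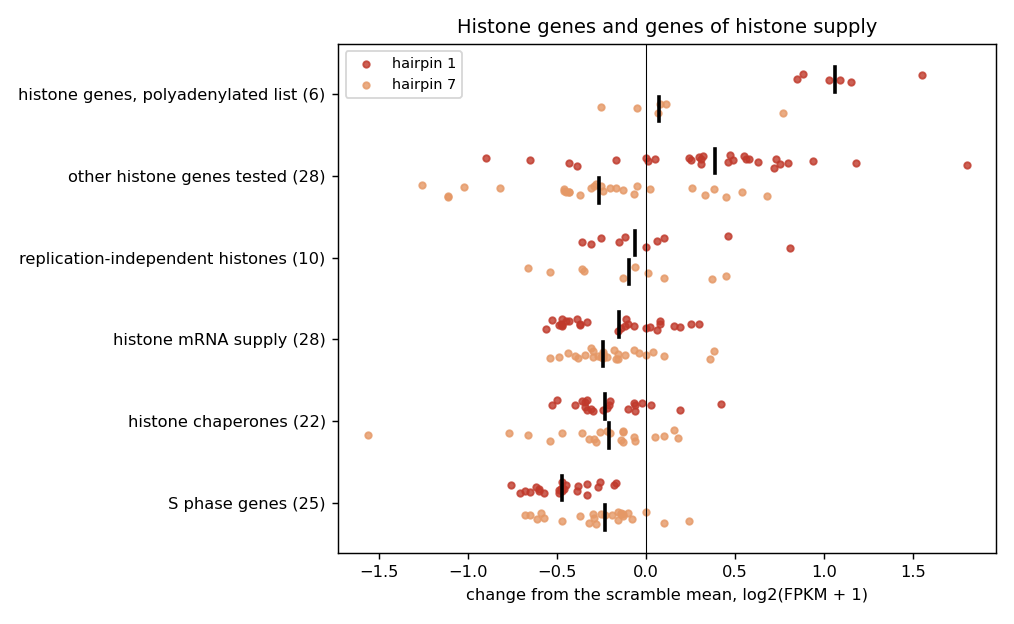
Difference from the scramble mean in log2(FPKM + 1) for each gene tested in 6 lists, with hairpin 1 in dark red above hairpin 7 in orange, a black bar at each median and the number of genes in brackets. The medians of the polyadenylated histone list are 1.06 and 0.07, and those of the S phase genes are −0.47 and −0.23.

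Members with and without a promoter motif had medians of the same sign with each hairpin. The 13 tested members with the octamer had a median log2 change of 0.46 with hairpin 1 and −0.25 with hairpin 7, and the 19 without it had 0.58 and −0.17. With TATAAA the medians over 21 members were 0.72 and −0.17, and over the 11 without it they were 0.49 and −0.29. These differences were not tested. HIST1H1C and HIST1H3G, which lay on opposite sides of scramble with both hairpins, both have CCAAT and neither has TATAAA or the octamer in this window.

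The 37 members under 1 FPKM summed to 13.03 FPKM with hairpin 1 and 6.98 FPKM with hairpin 7, against 18.03 and 14.84 FPKM in the scramble libraries. Both knockdown sums were below both scramble sums. Listed at 0 were 15 of them with hairpin 1 and 21 with hairpin 7, against 11 in scramble 1 and 13 in scramble 2. Listings at 0 and values this low depend on read depth, which is unknown, and these differences were not tested. Single values jumped between libraries, as in HIST1H4K, which had 1.65 FPKM with hairpin 1 and was listed at 0 in the other 3 libraries, or HIST2H3D, with 0.66 and 0.72 FPKM, against 1.88 FPKM in scramble 1 and a listing at 0 in scramble 2. Those 2 were chosen after their values were seen. The testis histone genes HIST1H2AA and HIST1H2BA were listed at 0, and HIST3H3 had at most 0.70 FPKM.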

How the data were processed

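RNA of 4 libraries was measured, and the authors deposited FPKM per gene. Per the submitters' processing notes, reads went through STAR and RSEM, whose versions, like the build, gene annotation, strandedness and any poly(A) selection, were not given in the sources used here. RSEM divides reads among similar copies, so single values of near-identical histone genes are uncertain, and overlapping genes cannot be told apart. The table had 344810 rows, of which 291033 without an Ensembl identifier were used only in the FPKM summed over all rows. Depth is unknown, so no counting intervals are given.

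Genes averaging 1 FPKM or more were compared on the log2(FPKM + 1) scale by limma 3.58.1 under R 4.3.3 (lmFit, eBayes with trend), with Benjamini-Hochberg adjustment over 12834 genes, 2 residual and 2.87 prior degrees of freedom. A fold change on this scale understates the change of low genes. The procedure was checked on simulated data. The hairpins were also described separately, as at least 1.5-fold beyond both scramble libraries. Alternatives were a pseudocount of 0.1, a minimum mean of 5 FPKM or none, median-ratio or quantile scaling, eBayes without trend, protein-coding genes alone, a 2-fold limit and each library left out. Members and gene lists were chosen with earlier results of these data known. Members named by rule were the 20 with the highest mean and the 4 with the largest difference between hairpins in each direction. As hairpin 1 lay above hairpin 7 in 32 of 34 members, the other direction also took in HIST1H3C and HIST1H2BL. Their hairpin 7 minus hairpin 1 differences were small, at −0.18 and −0.19. In each list the rule allowed up to 5 genes of smallest p and those whose role defines it. Not all of these are shown, and some genes, SSRP1 and PCNA among them, were named outside the rule. Gene models came from GENCODE 29 (36 members matched by identifier, 34 by symbol), and promoters from RefSeq.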

Additional observations from a re-analysis of the deposited data

Results flagged for a closer look

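In 8 of the 34 tested histone genes the hairpin 1 library lay above both scramble libraries and the hairpin 7 library below both. The same held for 10.7% of all genes tested. The hairpin 7 minus hairpin 1 difference in log2(FPKM + 1) was −1.47 for HIST1H2BH, −1.35 for HIST1H2BG, −1.09 for HIST1H2AC, −0.99 for HIST1H4J, −0.87 for HIST1H4H, −0.78 for HIST2H2BF, −0.76 for HIST3H2BB and −0.68 for HIST1H3H. The difference between hairpins was not tested, since each hairpin has 1 library.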

How the results depend on the processing

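No member passed the adjusted limma test over both hairpins with any pseudocount, minimum, scaling or filter tried, and 7 members had an unadjusted p under 0.05 as reported. Leaving out 1 library gave 0 to 11 members past the threshold, with 11 for hairpin 1 alone (without hairpin 7) and 5 for hairpin 7 alone (without hairpin 1), and a median log2 change of −0.22 to 0.52. The direction therefore depends on the hairpin kept. The 13 members of at least 5 FPKM had a median of 0.50. Without scramble 1 or without scramble 2, 0 of the 12834 genes passed in limma, NIPBL and the S phase and 7SL genes included, and 1 of 25230 passed with no minimum. Single log2 changes that turned sign ranged from −0.25 to 0.85 for HIST1H2AC, −0.13 to 0.31 for HIST1H2AE, −0.25 to 0.55 for HIST1H2AI, −0.05 to 1.09 for HIST1H2BD, −1.11 to 0.24 for HIST1H2BG, −1.02 to 0.46 for HIST1H2BH, −0.46 to 0.33 for HIST1H2BJ, −0.43 to 0.01 for HIST1H4C, −0.24 to 0.75 for HIST1H4J, −0.05 to 1.18 for HIST2H2AA3 and −0.61 to 0.15 for HIST2H2AC, and the cause was not tested. With log2(FPKM + 0.1), members 1.5-fold below with hairpin 1 became 2 and above with hairpin 7 became 3. With a 2-fold limit they were 5 above and 0 below with hairpin 1, and 0 above and 3 below with hairpin 7. Against 1 scramble library, a choice made after seeing the data, the counts were 15 to 17 above and 1 to 2 below with hairpin 1, and 2 above and 7 below with hairpin 7. No paired analysis was possible because the labels give the groups no shared replicate numbers. Low values with 2 libraries a group and unknown depth limit what can be detected.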
